A study of Mus musculus
Rattus norvegicus and Mus musculus and Rattus norvegicus with 95 samples.

Results

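Nnat, Ndn, Snrpn and Snurf, genes that mammals normally transcribe from the paternal chromosome copy were followed through mouse-rat allodiploid embryonic stem cells and the cells made from them. They were taken by name, and all 4 had a row in both deposited tables, among 13926 mouse-rat homologues. They and the lists of related genes were chosen with earlier results of these data known. Their counts set beside all genes are therefore a description. Allodiploid embryonic stem cells (AdESCs) carry a mouse and a rat chromosome set in the same nucleus. Bulk RNA was sequenced from G0/G1 stem cells, with 1 library for each of the AdESC lines RM1-1, RM2-1, MR1-1 and MR2-1 (n = 4), the rat lines DA25 and DA53 (n = 2) and the mouse lines F145 and F146 (n = 2). The labels give no strain, sex, passage or parent of origin for any line, and do not say what RM and MR stand for. Single cells came from the same AdESC lines. There were 87 of them, and all cells of 1 kind from 1 line are called a sample here (11 samples). The 63 differentiated cells were 8 neurons from a mouse chimaera of RM1-1, 10 fibroblasts from a mouse chimaera of MR1-1, 4 lung and 20 testis somatic cells of RM2-1 from rat chimaeras, 4 testis somatic cells of RM1-1 from a mouse chimaera, and embryoid body (EB, an aggregate of differentiating stem cells) cells, 12 of MR2-1 and 5 of RM1-1. The 24 undifferentiated cells were AdESCs, 6 of MR1-1, 8 of MR2-1, 4 of RM1-1 and 6 of RM2-1. The tissues are known by 1 sample each except testis and EB, the number of animals behind a sample is not given in the labels, and tissue and line cannot be told apart in the neuron, fibroblast and lung samples.

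Imprinted genes are marked by DNA methylation laid down in the egg or the sperm, so that after fertilisation the copy from a given parent is silent. The tables add both copies and both species together, so they show how much RNA a gene gave and not which copy gave it. Nnat encodes neuronatin, a small membrane protein of the endoplasmic reticulum that is abundant in developing brain. Ndn encodes necdin, a growth-restraining protein of the MAGE family found in postmitotic neurons and in several mesenchymal cells. Snrpn encodes SmN, a brain-rich component of the spliceosome, and Snurf a small protein read from the upstream part of the same messenger RNA. Ndn, Snrpn and Snurf lie in the cluster that corresponds to the human Prader-Willi region, while Nnat is imprinted on its own within an intron of Blcap.

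On the mouse assembly GRCm38, as annotated by GENCODE M21, Nnat (homologue number 36176) lies on chromosome 2 from 157560078 to 157562522 on the plus strand. It sits inside the span of Blcap, which runs on the other strand, and the 2 genes share 0 exonic bases. Ndn (20559) lies on chromosome 7 from 62346569 to 62350262 on the plus strand, as 1 exon of 3694 bases. Snrpn (68297) covers chromosome 7 from 59982495 to 60140219 on the minus strand and Snurf (36493) covers 59995449 to 60005049 within it. All 216 exonic bases of Snurf are exonic bases of Snrpn. In transcript ENSMUST00000059305 the Snurf coding run fills bases 63 to 278 and the Snrpn coding run begins at base 465, with 186 bases between them. The other of the 2 annotated Snrpn transcripts, ENSMUST00000098402, does not hold the Snurf coding run, and its Snrpn coding run begins at base 616. All 167 stretches of 50 bases in Snurf also occur in a Snrpn transcript, so on this mouse annotation a read from that part fits both genes. Whether the rat gene models overlap in the same way was not checked. The sources do not say how such reads were shared out between the rows. The first 30 bases of the Snurf coding run, on the minus strand of chromosome 7 between 59999398 and 60005049 across an intron, are shown because they belong to both genes, with the start codon in capitals.
Snurf and Snrpn: ATGgagcgaggaagggatcgcttacacttg
Snrpn also has a close relative, Snrpb on chromosome 2, which encodes the SmB proteins that most cells use. Their coding runs, 723 bases for Snrpn and 696 for Snrpb, are identical at 560 of 696 aligned bases (80.5%). The longest stretch they share is 32 bases, and 0 of 2027 Snrpn stretches of 50 bases occur in a Snrpb transcript. The window of 62 coding bases around that stretch is shown to make the likeness visible, with the 7 differing bases in capitals. It lies on the minus strand of chromosome 7 between 59986860 and 59987449 for Snrpn and on the minus strand of chromosome 2 between 130175418 and 130177052 for Snrpb, in each across an intron.
Snrpn: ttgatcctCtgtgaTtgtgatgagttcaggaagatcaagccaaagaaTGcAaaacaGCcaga
Snrpb: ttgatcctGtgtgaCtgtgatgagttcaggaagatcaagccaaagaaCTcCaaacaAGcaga

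Values are FPKM, a read level scaled to transcript length and to the mapped fragments of the library. The FPKM of all genes summed to 312695 to 377664 per bulk library and 213045 to 411555 per cell, where 3444 to 6246 genes were at 1 FPKM or more. All 4 genes passed the filter of a mean of 1 FPKM in both tables. Marker lists did not set every sample apart as its label would. The RM1-1 testis sample had 8 of 13 measured neuron markers at 1 FPKM or more, beside 12 of 13 in the neuron sample, 1 to 4 in the other differentiated samples and 5 to 7 in AdESC samples. Its summed level came mainly from Gap43 at 235 FPKM, Tubb3 at 69.7 and Stmn2 at 63.5, while Dcx, Syt1, Rbfox3 and Mapt were at 0.0403 FPKM or less. Col1a1, a collagen gene of stroma, averaged 0.0108 FPKM in it. The lung sample had 0 of 8 measured lung epithelial markers at 1 FPKM, with surfactant genes at 0. It had 9 of 11 fibroblast and 4 of 4 smooth muscle markers, and Cyp11a1, a steroid-making enzyme, averaged 1028 FPKM through 2 of its 4 cells, with Cyp17a1 and Lhcgr of the same Leydig list at 0. The neuron sample also carried glial genes, such as the glutamate transporter Slc1a3 at 316 FPKM, with all 8 cells at 1 FPKM or more. Gap43 and Ncam1 were at that level in all 8 cells too, Tubb3 in 4, and Dcx and Snap25 in 3. Its cells are called neurons here after their label. Dnmt3l, a DNA methylation cofactor of stem cells, was at 1 FPKM or more in 6 of 10 MR1-1 fibroblast and 8 of 12 MR2-1 EB cells. Pluripotency markers summed to 76.7 FPKM in the fibroblast sample (3 of 6 at 1 FPKM or more) and 145.1 FPKM in MR2-1 EB (2 of 6), mostly Klf4 at 67.1 and 107 FPKM, with Nanog at 0.0553 and 0.123 FPKM. The sum was 11.7 to 33.2 FPKM in the other differentiated samples and 719 to 924 FPKM in AdESC samples (6 of 6).

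In bulk stem cells Nnat stood between the parental species in AdESCs. It had 15.8, 12.5, 15.2 and 26.9 FPKM in RM1-1, RM2-1, MR1-1 and MR2-1, 51.4 and 85.1 FPKM in the rat lines DA25 and DA53, and 4.25 and 2.09 FPKM in the mouse lines F145 and F146. No library of 1 group reached the range of another, and MR2-1 was the highest of the AdESC lines. The AdESC mean of 17.6 ± 6.37 FPKM (SD, n = 4) was 0.258 times the rat mean of 68.3 ± 23.8 FPKM (n = 2) and 5.55 times the mouse mean of 3.17 ± 1.52 FPKM (n = 2). On the log2(FPKM + 1) scale Nnat was higher in AdESCs than in mouse ESCs by 2.15 ± 0.37 (SE, limma, adjusted p = 0.0147). It was lower in AdESCs than in rat ESCs by a difference of -1.91 ± 0.37 (limma, adjusted p = 0.0104). In rat over mouse ESCs the difference was 4.06 ± 0.43 (limma, adjusted p = 0.000139). Without F146 the AdESC and mouse difference was 1.77 (limma, adjusted p = 0.0709), and without DA53 the AdESC and rat difference was -1.55 (limma, adjusted p = 0.178). In bulk RNA, fewer cells that express a gene and less RNA in each cell cannot be told apart. The submitters' processing notes name a mouse and a rat genome build. The part of the builds in species differences of Nnat, or of the other genes below, was not tested. All 3 comparisons draw on the same libraries, so they are not independent.

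Snurf was ordered like Nnat. It had 36.6, 22.9, 34.6 and 31.5 FPKM in RM1-1, RM2-1, MR1-1 and MR2-1, 69.97 and 59.1 FPKM in DA25 and DA53, and 4.86 and 7.18 FPKM in F145 and F146. The 3 groups again did not overlap, and the AdESC values lay closer together than those of Snrpn. AdESCs averaged 31.4 ± 6.03 FPKM (n = 4), rat ESCs 64.5 ± 7.67 FPKM and mouse ESCs 6.02 ± 1.64 FPKM (n = 2 each). Snurf was higher in AdESCs than in mouse ESCs by 2.21 ± 0.27 (limma, adjusted p = 0.00338) and higher in rat than in mouse ESCs by 3.24 ± 0.32 (limma, adjusted p = 8.70e-05). The difference of AdESCs from rat ESCs was -1.03 ± 0.27 (limma, adjusted p = 0.0417). That last call was lost without any of the 4 AdESC or 2 rat libraries, with adjusted p between 0.0506 without MR1-1 and 0.306 without DA25.

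Snrpn, although an annotated mouse transcript of it contains the Snurf coding run, was ordered the other way between the parents. It had 49.5, 13.3, 48.2 and 18.1 FPKM in RM1-1, RM2-1, MR1-1 and MR2-1, 2.23 and 2.70 FPKM in DA25 and DA53, and 22.4 and 29.8 FPKM in F145 and F146. All AdESC and mouse libraries were above both rat libraries, and the AdESC lines fell on either side of the mouse lines. AdESCs averaged 32.3 ± 19.2 FPKM (n = 4), rat ESCs 2.46 ± 0.33 FPKM and mouse ESCs 26.1 ± 5.25 FPKM (n = 2 each). Snrpn was higher in AdESCs than in rat ESCs by 3.05 ± 0.50 (limma, adjusted p = 0.00438), a value that without DA25 had an adjusted p of 0.0559. In rat over mouse ESCs it was lower, by a difference of -2.96 ± 0.58 (limma, adjusted p = 0.00475). Between AdESCs and mouse ESCs the difference was 0.10 ± 0.50 (limma, adjusted p = 0.942), and its sign turned without F145, MR1-1 or RM1-1.

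The ratio of Snurf to Snrpn FPKM therefore split the species. It was 0.740, 1.73, 0.717 and 1.74 in RM1-1, RM2-1, MR1-1 and MR2-1, 31.4 and 21.9 in DA25 and DA53, and 0.217 and 0.241 in F145 and F146. The rat lines had far more Snurf than Snrpn, the mouse lines more Snrpn than Snurf, and the AdESC lines lay between. Added together, the 2 rows came to 63.7 ± 24.6 FPKM in AdESCs, 67.01 ± 7.34 FPKM in rat ESCs and 32.1 ± 6.90 FPKM in mouse ESCs. The sum in rat ESCs was thus 2.09 times that in mouse ESCs, beside 10.7 times for Snurf and 0.0943 times for Snrpn. A difference in RNA and a difference in how the mouse and rat gene models divide the shared reads cannot be told apart in these tables.

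**Figure D1:**
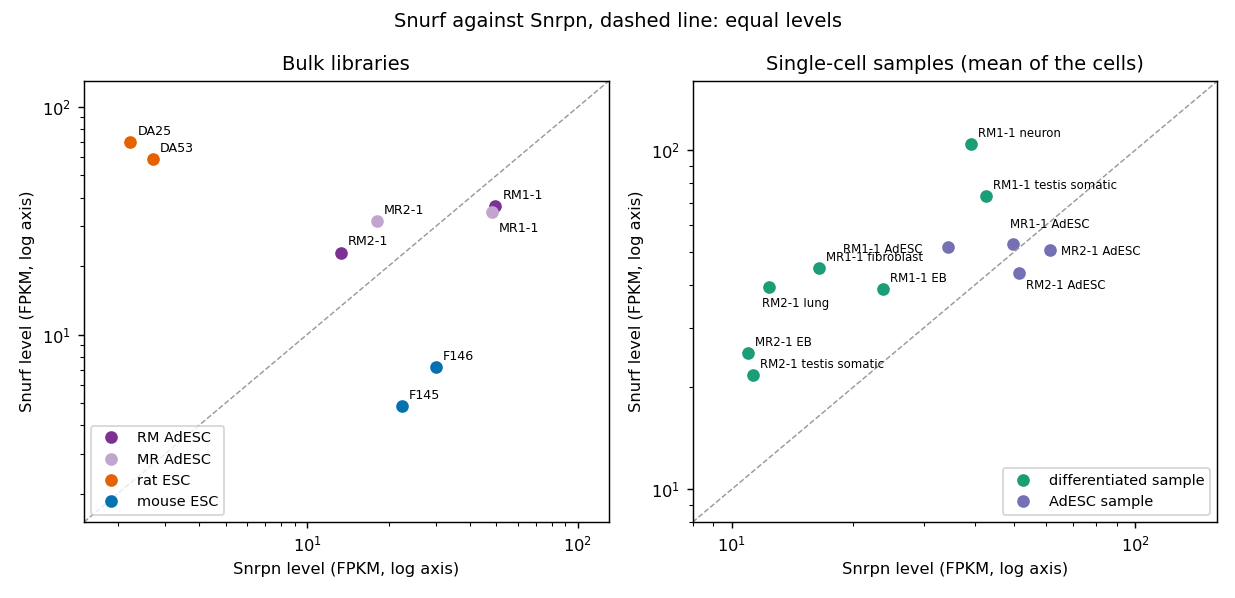
Snurf level against Snrpn level in FPKM, on log axes, for the 8 bulk libraries (left) and the 11 single-cell samples as the mean of their cells (right), with a dashed line where both are equal. The 2 rat libraries lie far above the line and the 2 mouse libraries below it, with the 4 AdESC libraries between; in the single cells all 7 differentiated samples lie above the line.

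The AdESC libraries fell into high and low Snrpn by line number rather than by RM and MR. RM1-1 and MR1-1 had 49.5 and 48.2 FPKM, and RM2-1 and MR2-1 had 13.3 and 18.1 FPKM. The mean of the lines numbered 1 was 3.11 times that of the lines numbered 2 for Snrpn, beside 1.31 times for Snurf, 1.29 times for Ndn and 0.788 times for Nnat. The number in a line's name is not explained in the labels, this split was seen in the values, and it was not tested. In single AdESCs the Snrpn means were 49.9 FPKM in MR1-1, 34.4 in RM1-1, 61.6 in MR2-1 and 51.4 in RM2-1, so the lines numbered 1 did not stand above the others there.

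Ndn was low in all bulk stem cells. It had 5.44, 2.28, 4.10 and 5.13 FPKM in RM1-1, RM2-1, MR1-1 and MR2-1, 2.47 and 2.70 FPKM in DA25 and DA53, and 8.88 and 7.29 FPKM in F145 and F146. The mouse lines were highest, and RM2-1 overlapped the rat lines. AdESCs averaged 4.24 ± 1.43 FPKM (n = 4), rat ESCs 2.58 ± 0.17 FPKM and mouse ESCs 8.08 ± 1.13 FPKM (n = 2 each). Ndn was lower in rat than in mouse ESCs by a difference of -1.34 ± 0.39 (limma, adjusted p = 0.0298), a call lost without any 1 of the 4 parental libraries (adjusted p = 0.108 without F145, 0.0562 without F146, 0.143 without DA25 and 0.127 without DA53). The differences of AdESCs from mouse ESCs, -0.84 ± 0.34 (limma, adjusted p = 0.210), and from rat ESCs, 0.50 ± 0.34 (limma, adjusted p = 0.383), did not pass the test.
Fibroblast markers also differed between these libraries. Of 11 measured, 9 or 10 were at 1 FPKM or more in the AdESC libraries, 2 or 3 in the rat and 10 or 11 in the mouse libraries. Their summed level was 549 to 732 FPKM in AdESCs, 361 to 685 FPKM in rat lines, where Col1a2, Col3a1, Dcn, Lum and Thy1 were at 0, and 671 FPKM in F146 and 3635 FPKM in F145. The summed levels of DA53 and F146 were close, although Col1a1 was 0.0440 FPKM in DA53 and 89.7 FPKM in F146. The part of such cells in the Ndn level was not tested.

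Read against all genes, 2 of the 4 passed the test between AdESCs and mouse ESCs, both higher, where 3.89% of 8794 genes did (2.71% higher and 1.18% lower). Against rat ESCs 3 of 4 passed, 1 higher and 2 lower, beside 9.7% of all genes (5.79% higher and 3.91% lower). Between rat and mouse ESCs all 4 did, beside 26.6% (14.1% higher and 12.6% lower). Nnat and Snurf were higher in rat ESCs, and Ndn and Snrpn lower. RM and MR lines were not told apart by the test, with 0 of 4 genes called and 0% of 8794 (limma, 51 genes at an unadjusted p below 0.05). The RM minus MR differences were -0.50 ± 0.43 for Nnat, -0.28 ± 0.42 for Ndn, -0.19 ± 0.61 for Snrpn and -0.18 ± 0.35 for Snurf (n = 2 each, limma, adjusted p = 0.999848 for each). With line number as a block 10 genes were called, none of them among the 4 genes.

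**Figure D2:**
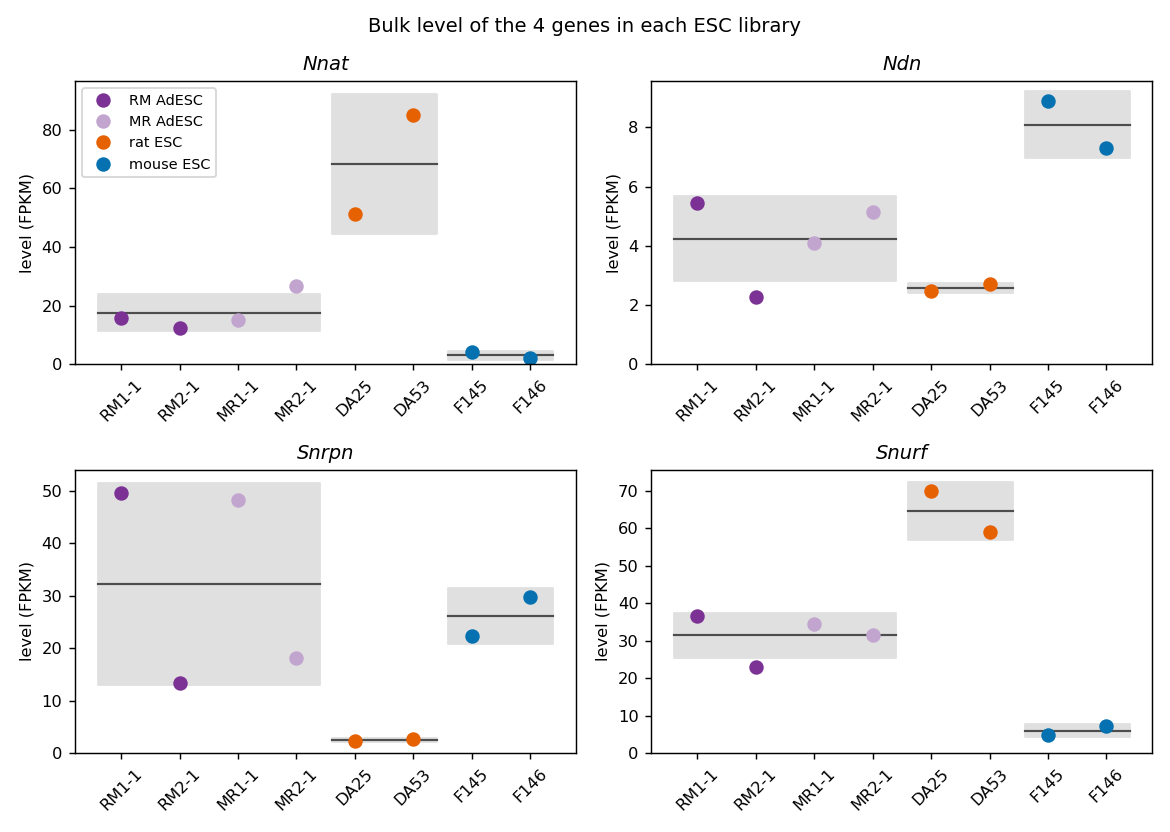
FPKM of the 4 genes in each bulk library, on linear axes from 0, with the group mean as a line and the mean ± SD as a grey band (AdESC n = 4, rat and mouse n = 2 each). Nnat and Snurf rank rat, AdESC, mouse; Snrpn is near 0 in the rat lines and split among the AdESC lines.

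In single cells the neuron sample had the highest mean of Nnat and of Snurf, and the second of Ndn. The 8 neurons ranged from 19.3 to 466 FPKM of Nnat, and all 8 were at 1 FPKM or more. Their mean of 117 ± 150 FPKM (SD over cells) leaned on cells at 466 and 185 FPKM, the next being at 65.1. Their median of 58.3 FPKM was close to the 52.6 of RM1-1 EB, with 40.8 in RM1-1 testis. The 4 AdESC samples had Nnat means of 1.45 FPKM (MR1-1), 1.06 (MR2-1), 0.582 (RM1-1) and 1.19 (RM2-1), with 8 of 24 cells at 1 FPKM or more and none above 6.36 FPKM. The lowest cell of the neuron sample thus lay above the highest AdESC. The other differentiated samples, in falling order of mean, were RM1-1 EB at 53.6 FPKM, RM1-1 testis at 42.6, MR1-1 fibroblast at 19.3, RM2-1 testis at 9.40, lung at 6.46 and MR2-1 EB at 5.96. Neighbours in that order overlapped within 1 SD over cells throughout. The fibroblast and MR2-1 EB means rested mostly on 1 cell each, at 183 and 71.4 FPKM, beside medians of 0. In MR2-1 EB that cell also had the highest Ndn, 51.6 FPKM, and in the neuron sample the cell with the most Nnat had the most Ndn, 280 FPKM.

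More samples had Ndn than Nnat at 1 FPKM or more in every cell. The 8 neurons ranged from 24.6 to 280 FPKM, with a mean of 128 ± 78.1 (SD over cells). The RM1-1 testis cells averaged 226 ± 82.3 FPKM, the RM2-1 testis cells 103 ± 48.1 and the lung cells 55.8 ± 18.9, and every cell of these samples was at 33.6 FPKM or more. RM1-1 EB averaged 42.2 FPKM, and MR1-1 fibroblast and MR2-1 EB averaged 10.3 and 5.603 FPKM. In AdESCs the means were 11.1 FPKM for MR1-1, 3.42 for MR2-1, 0.661 for RM1-1 and 3.43 for RM2-1, with 10 of 24 cells at 1 FPKM or more. The fibroblast and MR2-1 EB samples therefore lay within or close to the AdESC range, and the other 5 above it. Fibroblast markers did not mark every cell of the fibroblast sample. Of its 10 cells, Col1a1 was at 1 FPKM or more in 5, Dcn in 3, Vim in 7 and Sparc in 10. Of the cells with Dnmt3l at 1 FPKM or more, 2 of 6 in the fibroblast sample and 3 of 8 in MR2-1 EB had Ndn, with at most 19.6 and 8.59 FPKM, and 2 of 4 cells without it in each sample had Ndn, up to 59.4 and 51.6 FPKM. This split was chosen after the values were seen and was not tested.

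**Figure D3:**
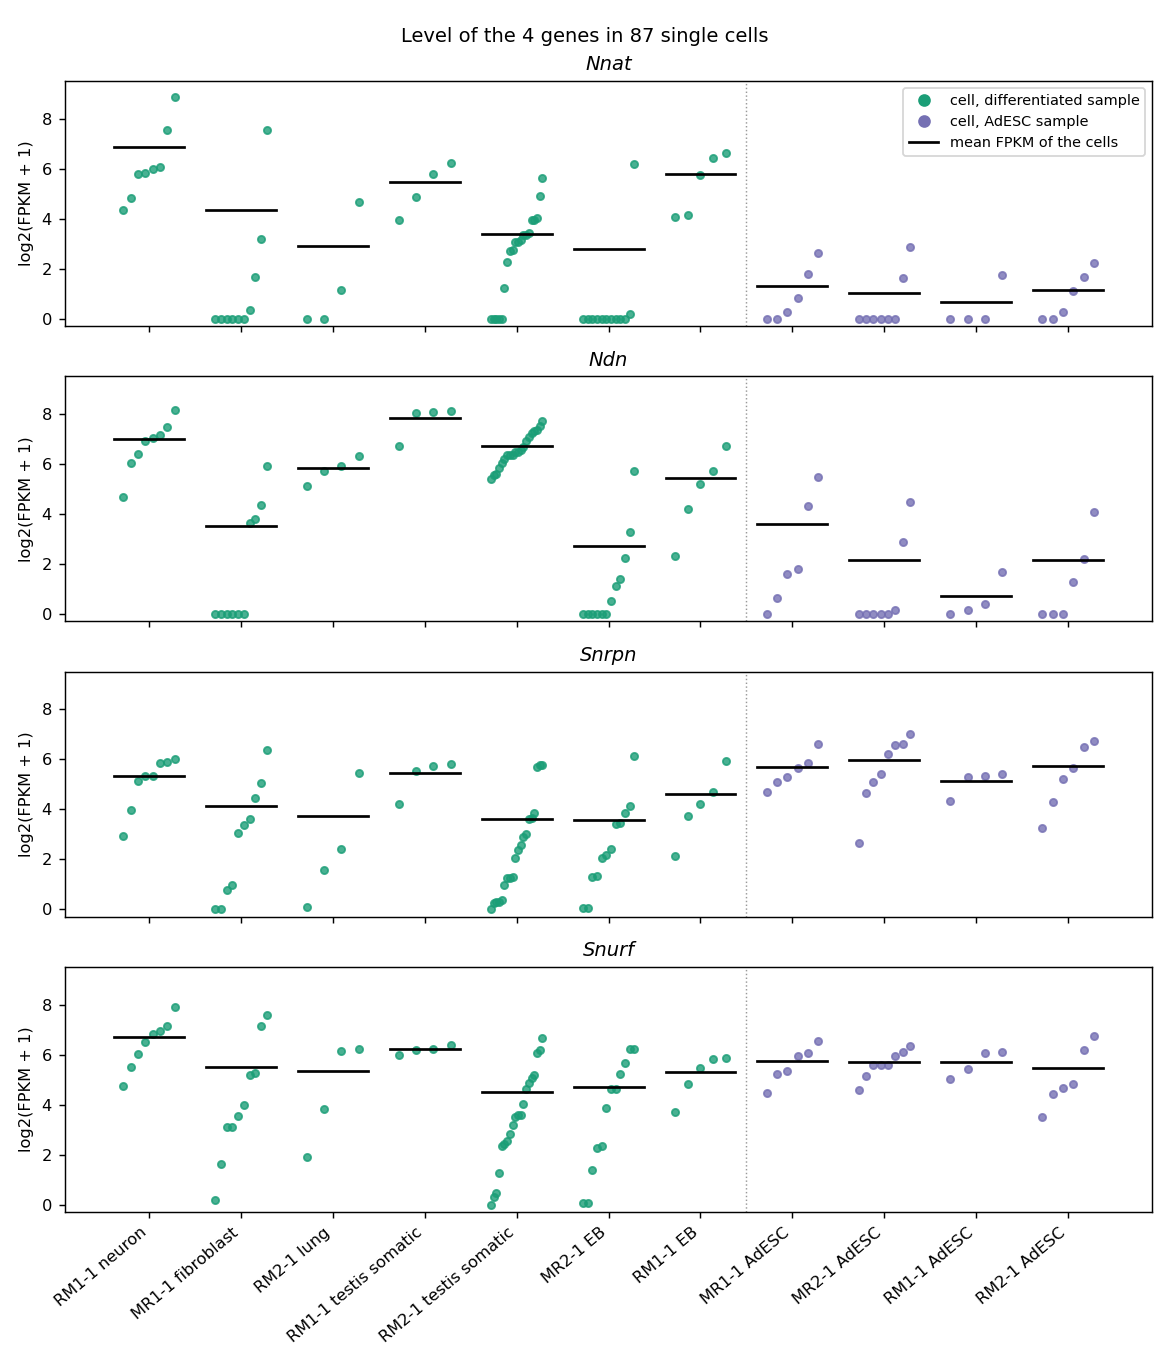
Level of the 4 genes as log2(FPKM + 1) in each of 87 cells, by sample, with differentiated samples left and AdESC samples right of the dotted line; the black bar is the mean FPKM of the cells on the same scale. Nnat and Ndn are at 1 FPKM or more in every cell of the neuron, RM1-1 testis and RM1-1 EB samples, while Snrpn and Snurf are at 1 FPKM or more in all 24 AdESCs.

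Snrpn was lower in most differentiated samples than in AdESCs, and Snurf was spread to both sides of them. The neurons averaged 39.2 FPKM of Snrpn (6.64 to 63.98 over cells) and the RM1-1 testis cells 42.6. RM1-1 EB followed at 23.7 FPKM, MR1-1 fibroblast at 16.5, lung at 12.4, RM2-1 testis at 11.3 and MR2-1 EB at 11.0. In these last 4 samples Snrpn ran from near 0 to levels found in AdESCs, and 33 of their 46 cells were at 1 FPKM or more. The AdESC samples averaged 34.4 FPKM in RM1-1 to 61.6 FPKM in MR2-1, and all 24 AdESCs were at 1 FPKM or more of both genes. Snurf averaged 104 ± 66.4 FPKM in the neurons and 73.05 ± 8.13 in the RM1-1 testis cells, above the 4 AdESC samples at 43.5 to 52.8. Snurf in the other differentiated samples lay between 21.7 FPKM in RM2-1 testis and 44.9 in MR1-1 fibroblast. Over all 87 cells 74 had both genes, 7 had Snurf without Snrpn, 0 had Snrpn without Snurf and 6 had neither. The ratio of Snurf to Snrpn was 1.65 to 3.20 in differentiated samples and 0.825 to 1.51 in AdESC samples, which did not overlap, and this difference was not tested.

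Over samples, 7 differentiated against 4 AdESC, 3 of the 4 genes passed the test, 2 higher and 1 lower, beside 15.9% of 8421 genes (7.37% higher and 8.57% lower). Nnat averaged 36.3 ± 40.02 FPKM in differentiated samples and 1.07 ± 0.36 FPKM in AdESC samples, a rise of 3.47 ± 0.71 (limma, adjusted p = 0.00375), and every differentiated mean lay above every AdESC mean. The means of MR1-1 fibroblast and MR2-1 EB do so through 1 cell each, and the call was lost with the median of the cells (2.64, limma, adjusted p = 0.140) and with the mean of their log values (2.52, limma, adjusted p = 0.0754). Ndn averaged 81.6 ± 78.1 FPKM in differentiated samples and 4.66 ± 4.50 FPKM in AdESC samples, a rise of 3.42 ± 0.84 (limma, adjusted p = 0.0127), and 5 of 7 lay above all AdESC samples. Snrpn averaged 22.4 ± 13.4 FPKM in differentiated samples and 49.3 ± 11.2 FPKM in AdESC samples, a difference of -1.27 ± 0.41 (limma, adjusted p = 0.0487). Snurf averaged 49.7 ± 29.3 FPKM in differentiated samples and 49.7 ± 4.21 FPKM in AdESC samples, a difference of -0.18 ± 0.38 (limma, adjusted p = 0.771). The Snrpn call was lost without any 1 of 9 samples (adjusted p = 0.0526 to 0.142) and held without the neuron or the RM1-1 testis sample. The Ndn call was lost without RM1-1 AdESC (limma, adjusted p = 0.0619). The samples of a line share their source, so they are not fully independent.

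The neural sample and the RM1-1 line came together. Nnat averaged 70.9 ± 39.95 FPKM over the 3 differentiated samples of RM1-1 (neuron, testis and EB) and 10.3 ± 6.22 FPKM over the 4 of other lines, and all 17 RM1-1 cells had it at 1 FPKM or more, against 21 of 46 cells of the other lines. Ndn averaged 132 ± 92.1 FPKM in the RM1-1 samples and 43.7 ± 45.6 FPKM in the others. Snrpn averaged 35.2 ± 10.1 FPKM in the RM1-1 samples and 12.8 ± 2.54 FPKM in the others. In an alternative chosen after the values were seen, the 3 RM1-1 samples were left out. Nnat was then higher in the remaining differentiated samples by 2.32 ± 0.52 (limma, adjusted p = 0.00710), Ndn by 2.53 ± 0.85 (limma, adjusted p = 0.0463), and the Snrpn difference was -1.86 ± 0.32 (limma, adjusted p = 0.00172). Of those 4 samples, MR1-1 fibroblast and MR2-1 EB had a median Nnat of 0 FPKM, and their means rested mostly on 1 cell each. Without the RM1-1 testis and lung samples, whose markers were mixed, the values were 3.604 ± 0.72 for Nnat, 2.92 ± 0.85 for Ndn and -1.37 ± 0.39 for Snrpn (limma, adjusted p = 0.00519, 0.0346 and 0.0328).

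Set against the AdESC sample of its own line, every differentiated sample had a higher mean of Nnat, by 1.76 in MR2-1 EB to 6.22 in the neurons on the log2(FPKM + 1) scale. In MR2-1 EB this came from 1 of 12 cells, the others being at 0.149 FPKM or less, while 2 of 8 MR2-1 AdESCs were at 1 FPKM or more. The median was 0 FPKM in MR1-1 fibroblast and 0.4932 FPKM in MR1-1 AdESCs. Ndn differed by 6.28 in the neurons, 7.10 in RM1-1 testis, 4.55 in RM2-1 testis, 3.68 in lung and 4.70 in RM1-1 EB. It differed by 0.58 in MR2-1 EB and -0.10 in MR1-1 fibroblast. Snrpn was 0.18 and 0.30 above the AdESCs of RM1-1 in the neurons and the RM1-1 testis cells, and -0.52 to -2.38 in the other 5 samples. Snurf was 1.00 and 0.49 in the same RM1-1 samples and -0.14 to -0.98 in the rest. The neurons and the RM1-1 testis cells thus had the same signs for all 4 genes. Neuron markers summed to 608 FPKM in the neurons and 408 FPKM in the RM1-1 testis cells, 19.4 to 156 FPKM in the other differentiated samples and 88.6 to 131 FPKM in AdESC samples, where Dcx, Snap25, Syt1 and Rbfox3 were at 0 in all 4. Of these 4 markers, Snap25 alone was above 0.01 FPKM in the RM1-1 testis cells, at 6.56 FPKM. Their part in these differences was not tested.

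**Figure D4:**
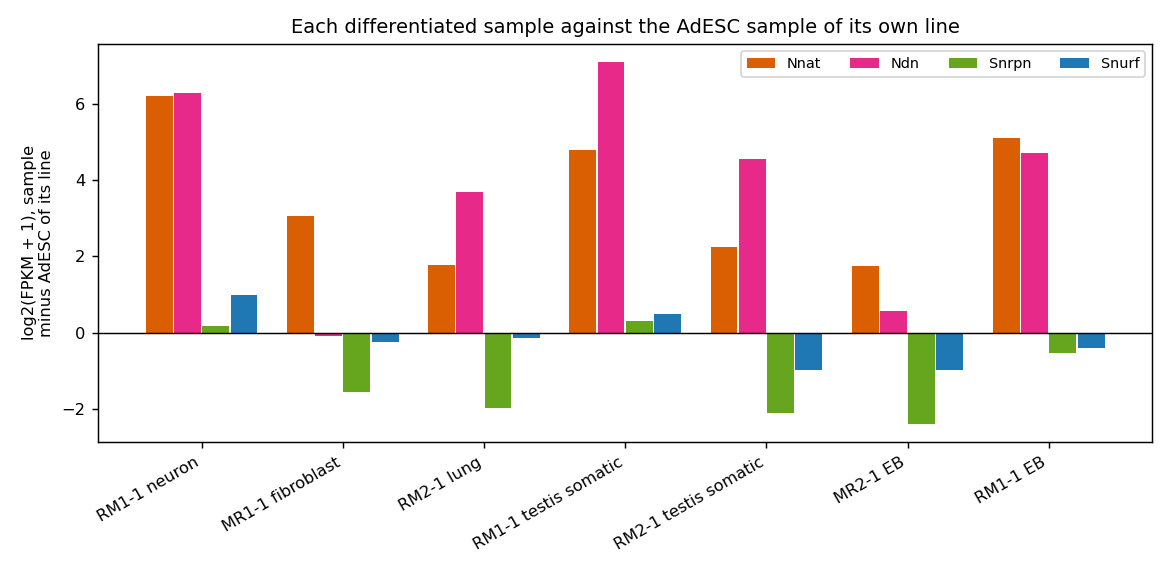
Difference in log2(FPKM + 1) between each differentiated sample and the AdESC sample of its own line, 1 value per gene and sample with no replicate. Nnat is above 0 in all 7 samples, and Snrpn is below 0 in 5 of them.

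Stem cells of the same lines gave different pictures in the 2 tables. Nnat had 12.5 to 26.9 FPKM in the bulk AdESC libraries, and 0 of 24 single AdESCs reached the bulk value of their line. Snurf reached it in 19 of 24 cells and Snrpn in 15 of 24. For Ndn the counts were 6 of 24 cells, beside bulk values of 2.28 to 5.44 FPKM. The tables were normalised separately and the bulk cells were in G0/G1, so levels set across them are a description with no test.

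Other genes of the same kind were read from a list of 24 paternally expressed genes, of which 10 were in the tables and 6 passed the filter in each. In differentiated over AdESC cells 0 of the 6 passed the test, and their median difference was 0.45, against 0.02 over all genes. Nap1l5, a brain-enriched nucleosome assembly protein, had 57.4 FPKM in the neurons, 35.3 in RM1-1 testis and 28.3 in RM1-1 EB, and at most 0.36 FPKM in the other 8 samples. Inpp5f, an inositol phosphatase, had 143 FPKM in the neurons and 127 in RM1-1 testis, 5.26 to 20.9 in other differentiated samples and 4.53 to 8.80 in AdESCs. Both were singled out after their values were seen, and not all genes of the list had this pattern. The amino acid transporter gene Slc38a4 had 0.0898 FPKM in the neurons, 0.0101 in RM1-1 testis, 69.1 in RM2-1 testis and 3.21 to 9.35 in AdESCs. Igf2 was at 0 in the neurons and RM1-1 testis and at 28.3 FPKM in RM1-1 EB. In rat over mouse ESCs the growth factor gene Igf2 was lower by a difference of -3.86 ± 0.80 (limma, adjusted p = 0.00613), at 1.79 and 0.92 FPKM in DA25 and DA53 against 89.03 and 11.6 FPKM in F145 and F146. The stromal gene Col1a1 had the same order, at 0.0720 and 0.0440 FPKM in DA25 and DA53 against 641 and 89.7 FPKM in F145 and F146, and its part in the Igf2 difference was not tested. Slc38a4 was also lower in rat over mouse ESCs, at -2.04 ± 0.58 (limma, adjusted p = 0.0261). These were 2 of 6 genes called lower, beside 12.6% of all genes. None of the 6 passed between AdESCs and either parent.

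Among map neighbours, Peg12, which lies beyond Magel2 and Mkrn3 from Ndn, had 90.3 FPKM in the neurons, 71.4 in RM1-1 testis and 52.4 in RM2-1 testis, 0.351 to 6.05 in the other differentiated samples and 15.6 to 36.9 in AdESCs (limma difference -1.01 ± 0.98, adjusted p = 0.503). Ube3a, a ubiquitin ligase that neurons express from the maternal copy, had 27.6 FPKM in the neurons, 17.1 to 38.1 in other differentiated samples and 28.8 to 49.6 in AdESCs (-0.56 ± 0.32, limma, adjusted p = 0.241). Blcap, which surrounds Nnat, was higher in differentiated samples by 1.51 ± 0.49 (limma, adjusted p = 0.0485), with 29.9 FPKM in the neurons, 12.4 to 23.7 in the others and 1.56 to 14.5 in AdESCs. Because the kit is not stated to keep strand, reads from Nnat and Blcap are told apart here by exons alone. Atp10a averaged at most 3.22 FPKM in any single-cell sample and did not pass the filter. Magel2 and Mkrn3 were not analysed here. None of the neighbours passed in the bulk comparisons.

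**Figure D5:**
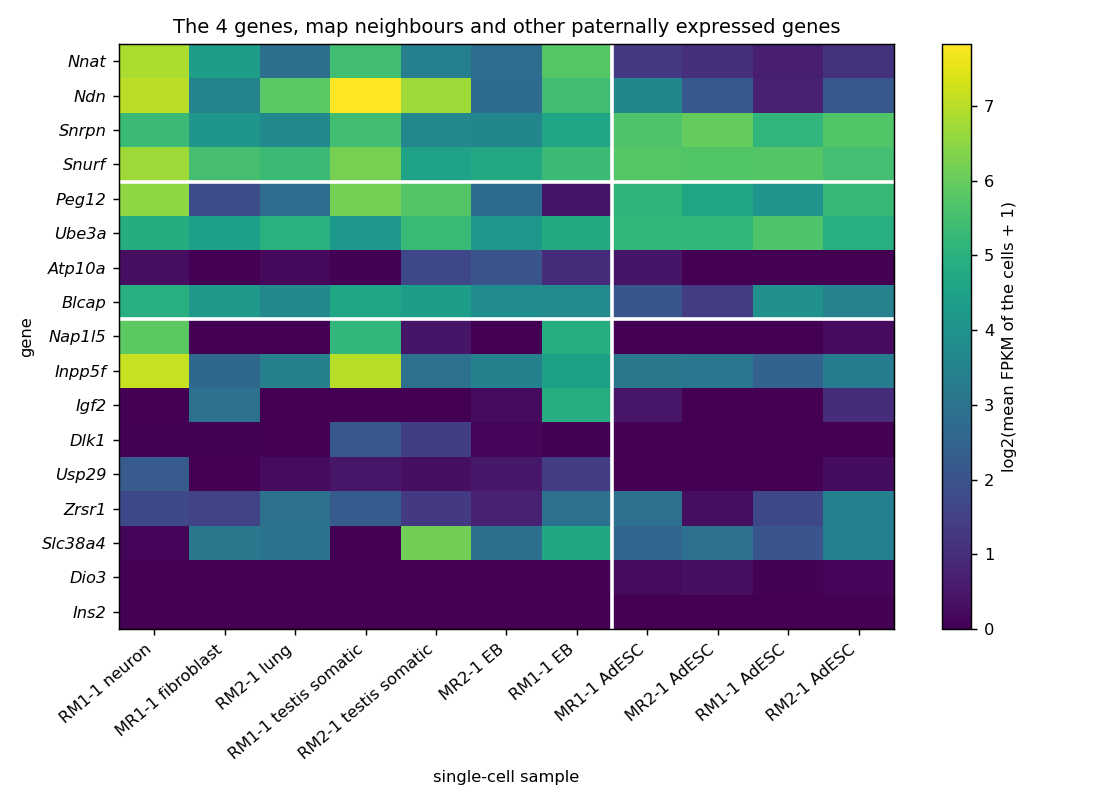
Mean FPKM of the cells as log2(FPKM + 1), in colour, for the 4 genes (top block), map neighbours (middle) and other paternally expressed genes (bottom) in 11 single-cell samples, differentiated left and AdESC right of the vertical line. Nap1l5 and Inpp5f are brightest in the RM1-1 neuron and RM1-1 testis samples.

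Further lists set the members beside their protein families and the machinery of imprints. Of the type II MAGE genes, which include Ndn, 5 passed the filter in single cells and 2 rose in differentiated samples, beside 7.37% of all genes, Maged2 by 3.01 ± 0.37 (limma, adjusted p = 6.04e-05) and Maged1 by 1.46 ± 0.40 (limma, adjusted p = 0.0230). Of 10 Sm and U1 or U2 snRNP proteins, the family of SmN, 2 fell, beside 8.57% of all genes, Snrpb2 with -0.91 ± 0.27 (limma, adjusted p = 0.0355) and Snrpf with -0.84 ± 0.27 (limma, adjusted p = 0.0435). Snrpb had 115 to 330 FPKM in differentiated samples and 298 to 350 FPKM in AdESC samples. Of 7 genes that set or keep imprints, 5 fell in differentiated samples, beside the same 8.57%. They were Dnmt3l (-6.08 ± 1.15), the imprint-binding zinc finger gene Zfp57 (-3.36 ± 0.42), its partner Trim28 (-2.74 ± 0.38), Dnmt3b (-2.65 ± 0.73) and Uhrf1 (-2.52 ± 0.80), with limma adjusted p of 0.00227, 6.47e-05, 0.000160, 0.0220 and 0.0438. In rat over mouse ESCs the same list had 3 members higher (14.1% of all genes), Dnmt3l, Dnmt3a and Trim28. Zfp57 was lower (12.6% of all genes), by a difference of -1.71 ± 0.48 (limma, adjusted p = 0.0254). Dnmt3l was also higher in AdESCs than in mouse ESCs, as the 1 member of 7 that passed (2.71% of all genes higher), by 2.88 ± 0.30 (limma, adjusted p = 0.00124).

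The genes most like each of the 4 were listed by Pearson r of log2(FPKM + 1). Over 11 single-cell samples, which share 4 lines, Nnat was most like Cplx2, a synaptic protein gene (r = 0.956), Ccnd2 (0.952) and Nr2f1 (0.950). Ndn was most like Ptplad1 (0.953), the glutamate receptor gene Gria3 (0.950) and Cav1 (0.939). Snrpn was most like Timm8a1 (0.962), Psmg4 (0.944) and Pdcl (0.942), and Snurf was most like Mrps33 (0.890), Hddc2 (0.879) and Sfrs18 (0.866). Among the 4 themselves r was 0.798 for Nnat with Ndn and 0.701 for Snrpn with Snurf, and -0.215 for Nnat with Snrpn. Over the 8 bulk libraries, which differ mainly by species, r was 0.920 for Nnat with Snurf, -0.747 for Nnat with Ndn and -0.503 for Snrpn with Snurf. There Nnat was most like Slc25a2 (0.987), Lman2 (0.987) and 2210016L21Rik (0.984), and Ndn most like Nf2 (0.977), Ptgr1 (0.976) and Zscan21 (0.971). Snrpn was most like Exosc8 (0.970), Siah2 (0.969) and Csrp2 (0.966), and Snurf most like Ube2j2 (0.997), Lpar2 (0.996) and Ubl5 (0.994). By likeness to Snurf over the single-cell samples, Snrpn ranked 164 of 8420 genes, and Snurf ranked 688 by likeness to Snrpn. Over the bulk libraries these ranks were 6723 and 6761 of 8793 genes.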

How the data were processed

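RNA was sequenced from TruSeq libraries, per the labels' protocols. The authors deposited FPKM for 13926 mouse-rat homologues. The submitters' processing notes name Cufflinks 2.1.1, TopHat2 2.0.10, FastQC 0.10.1 and the builds rn5 and mm10; the unit follows from the first and from the size of the values. How mouse and rat reads were joined in AdESCs, and how reads shared by Snrpn and Snurf were assigned, are not given in the sources used here. Depth is unknown: in the bulk libraries the most common spacing of low values held 3.69 to 7.18% of low genes, too few to recover reads, so no counting interval is given. No 2 libraries or cells held identical values.

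Each cell sample entered as the mean FPKM of its cells. Differences were fitted with limma 3.58.1 (R 4.3.3) on log2(FPKM + 1), pseudocount 1, with a trended prior, on genes whose mean reached 1 FPKM (8794 bulk, 8421 single-cell). The Benjamini-Hochberg adjustment covered every gene tested, the threshold was 0.05, and the fit was tested on simulated data. Bulk fits had 3 groups, or 4 with RM and MR apart. Libraries are separate lines, but no label speaks of independent cultures, so p-values measure the spread between these samples. A differentiated sample and the AdESC sample of its line are paired by the cell line in the labels; their deviations correlated between -0.015 and 0.036. Positions and transcripts are from GENCODE M21 (GRCm38). Members and lists were chosen with earlier results of these data known. Genes outside the 4 were named if they were map neighbours, passed the test within a related list (at most 5 per list), or were among the 3 most like a member. Named besides these were cell type markers, Snrpb as the relative of Snrpn, and Nap1l5 and Inpp5f, singled out after their values were seen. Alternatives changed the pseudocount, filter, scaling, prior, grouping, block and cell summary, and left out each library or sample.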

Additional observations from a re-analysis of the deposited data

Results flagged for a closer look

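Results for 2 genes differed in sign between samples with the same tissue label. Somatic testis cells, set against the AdESC sample of their own line on the log2(FPKM + 1) scale, had a Snrpn difference of 0.30 in RM1-1 and -2.09 in RM2-1. For Snurf the differences were 0.49 in RM1-1 and -0.97 in RM2-1. Each rests on 1 sample of 4 and of 20 cells, from a mouse and from a rat chimaera, and the difference between the lines was not tested. The markers of the 2 testis samples differed as well. Neuron markers summed to 408 FPKM in the RM1-1 and 156 FPKM in the RM2-1 testis sample. Col1a1 averaged 0.0108 and 154 FPKM, and the smooth muscle gene Tagln 36.4 and 3939 FPKM. The part of these markers was not tested. No sample stood far from the others in the bulk AdESC libraries, the AdESC samples or the differentiated samples for any of the 4 genes (12 groups of 4 or 7 values).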

How the results depend on the processing

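Of 284 values of the 4 genes under alternatives, 243 kept their direction and their side of the threshold, 34 lost their call and 7 turned sign. The 7 were uncalled: Snrpn in AdESCs minus mouse ESCs (leave-one-out range -0.18 to 0.43), and in RM minus MR Snrpn (-1.10 to 0.72), Ndn (-0.77 to 0.20) and Snurf (-0.51 to 0.15), where the cause is the loss of a library. Besides calls lost with a library left out, the Snurf difference between AdESCs and rat ESCs lost its call without the filter (limma, adjusted p = 0.0554), without the trend (0.0522) and with RM and MR apart (0.0775). Ndn in rat over mouse lost it without the filter (0.0594). In differentiated over AdESC cells Nnat lost it with the mean of log values (0.0754) and the median (0.140), Ndn without the filter (0.05004) and with the median (0.0608), and Snrpn without the filter (0.0762), without the trend (0.0706) and with the median (0.0661); the cause was not tested. The median over cells was 0 FPKM of Nnat in MR1-1 fibroblast, beside a mean of 19.3, and 0 in MR2-1 EB, beside 5.96.

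With a library left out, genes called ran from 151 (without DA25, DA53 or MR2-1) to 344 for AdESCs minus mouse ESCs, where they were 173 without RM1-1 and 186 without F145, against 342. They ran from 223 (DA53) and 250 (DA25) to 1063 for AdESCs minus rat ESCs, against 853, and from 1059 (DA53) and 1135 (DA25) to 2435 for rat minus mouse, against 2343. In differentiated minus AdESC cells they ran from 791 to 1367, lowest without an AdESC sample (807 MR1-1, 826 MR2-1, 791 RM1-1, 826 RM2-1), against 1343. With RM and MR apart 156 were called against mouse ESCs, and without the 3 RM1-1 differentiated samples 2018. With line number as a replicate block, RM minus MR had 10 calls, against 0; the numbers are shared names with a correlation of deviations of 0.553. The cell-line block gave 1457 calls in the single cells and changed no call of the 4 genes. Scaling to the upper quartile shifted the all-gene median by 0.13 (AdESCs minus rat) and -0.13 (rat minus mouse) and changed no call of the 4 genes. Groups of 2, 1 sample per tissue and unknown depth limit every comparison.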
